A study of Mus musculus with 5 samples.

Results

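The activin system of the mouse hippocampus is described here through 10 genes: the subunit genes Inhba, Inhbb and Inha, the type I receptor genes Acvr1, Acvr1b and Acvr1c, the type II receptor genes Acvr2a and Acvr2b, and the follistatin genes Fst and Fstl3. Members were taken by their gene symbol in the deposited tables. All 10 were among the 55385 genes of the deposited tables, and all 10 were among the 19768 genes that passed edgeR's filter on low counts. Total hippocampal RNA of 3 month old male C57/bl6 mice was sequenced in 5 libraries, which addressed how transcription changes over the hours after seizures. The control library came from untreated mice and is labelled 0 h, and the other libraries came from mice that received kainic acid, an agonist of glutamate receptors that provokes seizures, at 20 mg/kg into the peritoneum. These were killed 1 h (1 library), 4 h (2 libraries, replicates 1 and 2, called the 4 h pair and given in that order) or 8 h (1 library) after seizures began. It is not stated whether a library holds RNA of a single mouse, the control received no vehicle injection, and the shared treatment protocol also names SL327, an inhibitor of the kinase MEK, which no library's label carries.

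Activins are dimers of β subunits, secreted after a proconvertase has cleaved their precursors. A dimer binds a type II receptor, which phosphorylates a type I receptor, and the activated kinase phosphorylates SMAD2 and SMAD3, which enter the nucleus with SMAD4. Follistatins bind the dimer and keep it from its receptors, the inhibin α subunit pairs with a β subunit to make an antagonist, and in hippocampal neurons the βA gene Inhba is known as a gene induced by synaptic activity.

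The depth, as the sum of gene counts, was 19100374 for the control library, 17744508 for 1 h, 18250114 for 4 h replicate 1, 19109204 for 4 h replicate 2 and 16612225 for 8 h. Levels are CPM, a gene's count relative to the library's total, after TMM scaling, a correction for the composition of the libraries, and intervals are exact Poisson 95% intervals for a level and exact binomial 95% intervals for a ratio. They cover counting error only. In whole tissue, a smaller number of expressing cells and less RNA per cell cannot be told apart, and the same holds for the opposite direction.

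The 4 h libraries differed from each other beyond counting error: 2387 of the 19768 genes (12.1%) were at least 2-fold apart, and the SD of the log2 ratio was 0.72. Fos, an immediate early gene, had 519 CPM in 4 h replicate 1 and 70.4 CPM in replicate 2, against 10.8 CPM in the control and 999 CPM at 1 h. All 8 listed activity-regulated genes (Fos, Arc, Npas4, Egr1, Nr4a1, Nptx2, Bdnf and Homer1) were at least 2-fold above the control at 1 h, 5 were in both 4 h libraries, and 2 were at 8 h. By the same rule 5.32%, 4.86% and 6.72% of all genes tested were above it at 1 h, 4 h and 8 h. In 10 of 13 lists of cell type markers, the summed level differed by less than 2-fold between the highest and the lowest library, and no marker was at 0 in a library. Sums hide single markers, and within these 10 lists 5 genes were at least 2-fold from the control. In the 4 h pair, the dentate granule cell markers Dsp (72.2 CPM in the control, 4.34 and 13.6 at 4 h) and C1ql2 (29.3, then 11.0 and 11.7) were below it while Prox1 of the same list was above it (60.0, then 172 and 120), and Neurod6 of the excitatory neuron list was below it (144, then 60.9 and 67.1). The astrocyte marker Gfap was above it at 4 h and 8 h (221, then 596, 510 and 587), and the fibroblast marker Dcn was below it at 1 h. Hippocampal markers were present throughout, with the summed excitatory neuron list (Slc17a7, Neurod6 and Camk2a, of which Camk2a was the most abundant) between 1785 and 2220 CPM. The choroid plexus list (Ttr, Kl, Folr1 and Otx2, of which Ttr was the most abundant) had a summed 3908 CPM in the control, 1648 CPM at 1 h, 26.9 CPM in 4 h replicate 1, 4160 CPM in replicate 2 and 3021 CPM at 8 h. The thalamus list was highest in 4 h replicate 1 at 75.0 CPM and lowest at 8 h at 30.3 CPM, and the striatum list ranged from 19.0 CPM in the control to 38.8 CPM in 4 h replicate 1. The part of these differences in the results was not tested.

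The promoters of 5 members are shown because these genes lay on the same side of the control in both 4 h libraries, with an unadjusted p under 0.05 in edgeR's test of 4 h against the control: Inhba, Acvr1 and Acvr1c above it, Inha and Acvr2a below it. Each line gives 300 bases from RefSeq (GRCm38.p6), from 250 bases before the start of transcription annotated there to 50 bases after it, written 5′ to 3′ on the gene's strand. For Inha and Acvr1 the whole window lies inside the gene as GENCODE M21 draws it. The outermost starts there lie further upstream, at 75507077 and 58567157, so these 2 windows need not be the promoter in use. The Inhba window lies at its outermost start there, 16011851. For Inhba the paper reports differential use of alternative 5′ exons, so its window need not be that of the induced transcripts either. Capitals mark a SMAD box (CAGAC, or GTCTG on the other strand).
Inhba, chr13:16011601-16011900, plus strand: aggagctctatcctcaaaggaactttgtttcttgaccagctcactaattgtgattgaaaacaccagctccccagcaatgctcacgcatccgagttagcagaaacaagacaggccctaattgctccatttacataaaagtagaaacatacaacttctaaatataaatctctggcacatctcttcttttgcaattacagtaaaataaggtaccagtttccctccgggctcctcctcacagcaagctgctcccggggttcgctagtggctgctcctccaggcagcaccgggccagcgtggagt
Acvr1, chr2:58566779-58567078, minus strand: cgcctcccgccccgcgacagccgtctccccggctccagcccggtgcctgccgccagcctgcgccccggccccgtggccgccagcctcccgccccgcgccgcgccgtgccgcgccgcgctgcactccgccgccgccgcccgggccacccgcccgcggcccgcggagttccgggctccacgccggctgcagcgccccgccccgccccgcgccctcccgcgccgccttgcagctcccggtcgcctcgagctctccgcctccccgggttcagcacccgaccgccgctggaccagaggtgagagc
Acvr1c, chr2:58357709-58358008, minus strand: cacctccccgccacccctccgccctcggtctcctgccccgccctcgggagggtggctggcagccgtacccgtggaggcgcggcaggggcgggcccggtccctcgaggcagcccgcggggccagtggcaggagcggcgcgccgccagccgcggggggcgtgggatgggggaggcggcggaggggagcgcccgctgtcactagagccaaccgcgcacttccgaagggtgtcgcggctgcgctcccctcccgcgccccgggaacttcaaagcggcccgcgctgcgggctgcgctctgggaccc
Inha, chr1:75507359-75507658, plus strand: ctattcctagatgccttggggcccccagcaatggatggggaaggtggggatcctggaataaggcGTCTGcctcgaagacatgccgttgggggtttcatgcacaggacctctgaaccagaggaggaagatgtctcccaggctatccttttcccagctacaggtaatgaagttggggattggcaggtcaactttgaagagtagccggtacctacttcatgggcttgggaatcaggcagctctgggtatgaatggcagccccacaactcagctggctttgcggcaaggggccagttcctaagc
Acvr2a, chr2:48813859-48814158, plus strand: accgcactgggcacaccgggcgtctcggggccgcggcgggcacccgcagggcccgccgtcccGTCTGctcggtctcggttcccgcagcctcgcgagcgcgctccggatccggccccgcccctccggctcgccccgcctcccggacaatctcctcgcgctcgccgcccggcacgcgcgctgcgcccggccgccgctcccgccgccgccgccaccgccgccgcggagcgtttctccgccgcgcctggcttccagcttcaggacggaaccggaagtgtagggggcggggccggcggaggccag
The search on both strands covered the cyclic AMP response element TGACGTCA, its core TGACG outside a full element, the AP-1 site TGACTCA and the SMAD box, in the 10 promoters that the RefSeq table holds for 9 of the members (Acvr1c has 2; Fst has none). No match to the response element, its core or the AP-1 site was found in these windows. The SMAD box occurred in the promoters of Inha, Acvr2a, Acvr2b and Fstl3. Of all 32851 promoters of the same length, 1.79% held the full response element, 19.5% the core, 5.20% the AP-1 site and 49.6% the SMAD box. A match or its absence describes letters in this window alone. Of the 2 windows of Acvr1c, the other one also lies inside the gene. In base composition the promoters differed: 47.7% of the Inhba promoter was G or C, against 83.7% for Acvr1, 79.0% for this promoter of Acvr1c, 80.3% for Acvr2a, 55.3% for Inha and a median of 52.7% over all promoters.

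Inhba (ENSMUSG00000041324.14; chromosome 13, 16011851 to 16031621, plus strand) encodes the βA subunit, which as a homodimer forms activin A. It had 135 counts in the control, 634 at 1 h, 17572 and 7597 in replicates 1 and 2 in the 4 h pair and 1393 at 8 h. In CPM these were 6.78 (95% interval 5.69 to 8.03), 36.1 (33.3 to 39.0), 1044 (1028 to 1059), 402 (393 to 411) and 79.5 (75.3 to 83.7). No interval of a kainic acid library overlapped that of the control, and both 4 h libraries lay above the 1 h and 8 h libraries. The ratio to the control was 5.32 (4.41 to 6.45) at 1 h, 154 (130 to 184) and 59.2 (50.0 to 70.8) in the 4 h pair and 11.7 (9.81 to 14.1) at 8 h. The 4 h libraries themselves differed 2.60-fold (2.53 to 2.67), replicate 1 being the higher, which is less than the distance of either from the other time points.

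Ranked by CPM among the genes tested, which takes no account of gene length, Inhba held place 11068 in the control, 5692 at 1 h, 75 and 309 in the 4 h libraries and 2795 at 8 h. By log2 fold change it held place 121 at 1 h, place 5 at 4 h and place 19 at 8 h of the 19768 genes. The fitted log2 fold changes against the control were 2.39 at 1 h, 6.71 for the 4 h pair and 3.53 at 8 h, with SEs of 0.68, 0.77 and 0.70. In edgeR's quasi-likelihood test, whose spread rests on the 4 h pair with 1 residual degree of freedom, the adjusted p (Benjamini-Hochberg over all genes) was 1, 0.242 and 0.882, so Inhba was not called at any time point. DESeq2 called it at 4 h with an adjusted p of 4.44e-07. Over the 7 alternatives run, the adjusted p at 4 h ranged from 2.93e-124 to 0.327. Of these 7, a smaller prior count (a count added before log2 fold changes are taken) leaves the p of the main test unchanged. That setting could not change a call, so it has no weight in the counts of alternatives given here and below. Compared between time points, the log2 fold change was 4.32 (SE 0.67, adjusted p = 0.390 in the same edgeR test) for 4 h against 1 h and -3.18 (SE 0.63, adjusted p = 0.463) for 8 h against 4 h. For 4 h against 1 h, 4 of the alternatives that can change the p called Inhba. These were library size alone, no filter on low counts, DESeq2 and an assumed coefficient of variation. The first 2 of these also called it for 8 h against 4 h.

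**Figure D1:**
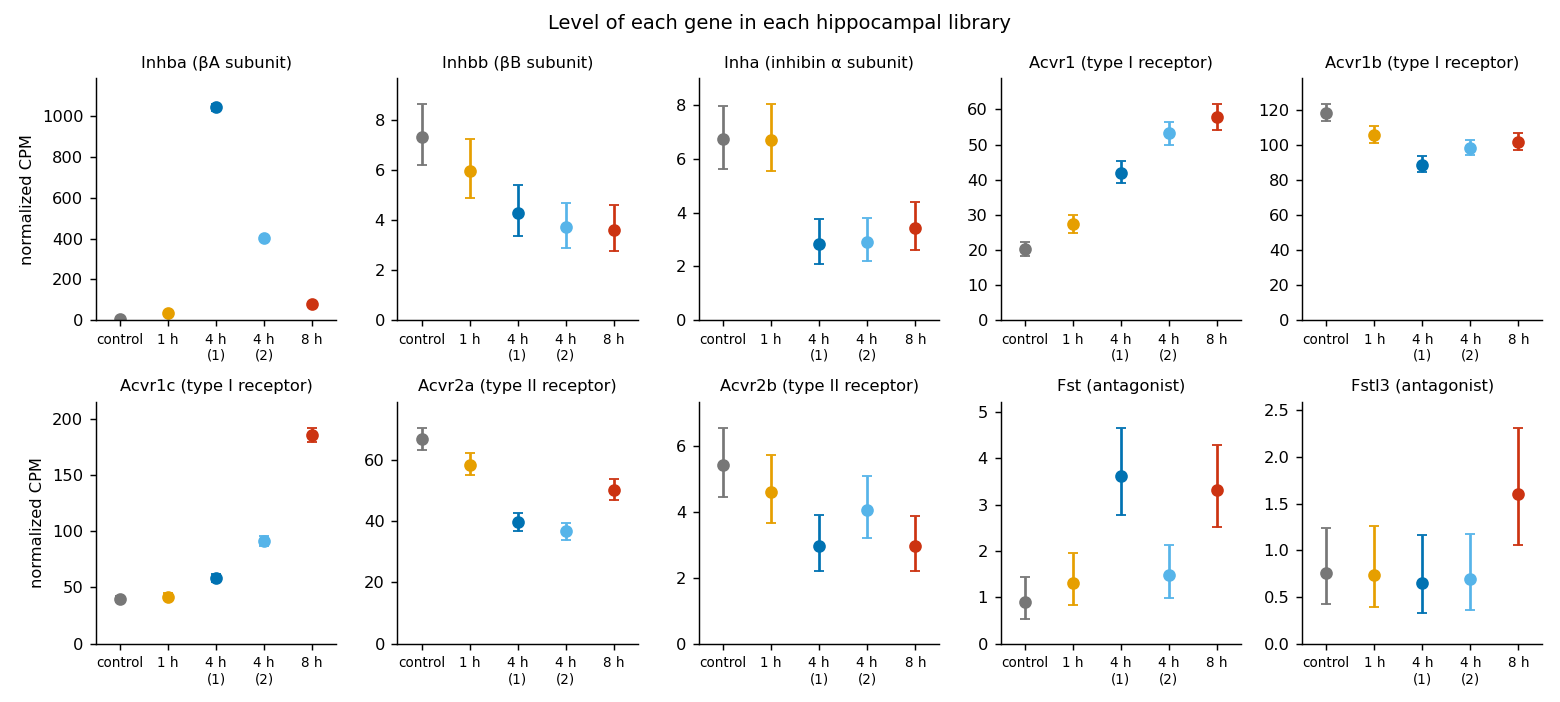
Normalized CPM (linear axes from 0, each panel with its own range) of the 10 genes in the control, 1 h, 4 h replicates 1 and 2, and 8 h libraries; points are single libraries and bars are exact Poisson 95% intervals, which cover counting error only. Inhba spans 6.78 to 1044 CPM with its highest values at 4 h, while Acvr1c is highest at 8 h with 185 CPM.

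Inhbb (ENSMUSG00000037035.5) encodes the βB subunit, which forms activin B with itself and activin AB with βA. Its levels were 7.34 CPM (6.19 to 8.63) in the control, then 5.97 (4.89 to 7.23) at 1 h, 4.28 (3.35 to 5.39) and 3.70 (2.89 to 4.68) in the 4 h pair and 3.59 (2.76 to 4.60) at 8 h. The intervals at 4 h and 8 h lay below that of the control, and the 1 h interval overlapped it. The 4 h and 8 h libraries overlapped one another, and their ratios to the control were 0.583 (0.433 to 0.778) and 0.505 (0.374 to 0.676) in the 4 h pair and 0.490 (0.359 to 0.663) at 8 h. The log2 fold change was -0.86 (SE 0.35, adjusted p = 0.432, edgeR) at 4 h and -1.01 (SE 0.42, adjusted p = 1) at 8 h.

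Inha (ENSMUSG00000032968.4) encodes the α subunit, which turns a β subunit into inhibin, an antagonist of activin. It had 6.73 CPM (5.64 to 7.97) in the control and 6.71 (5.56 to 8.04) at 1 h, then 2.85 (2.10 to 3.78) and 2.91 (2.19 to 3.79) in the 4 h libraries and 3.42 (2.61 to 4.41) at 8 h. Control and 1 h formed the upper level and the 3 later libraries the lower, without overlap between them. The 4 h libraries, 2.60-fold apart for Inhba, had a ratio of 0.980 (0.651 to 1.47) for Inha. The ratio to the control was 0.423 (0.298 to 0.593) and 0.432 (0.310 to 0.596) in the 4 h pair and 0.508 (0.368 to 0.694) at 8 h, with a log2 fold change of -1.19 (SE 0.35, adjusted p = 0.352, edgeR) for the pair. So the 3 subunit genes did not share a direction: at 4 h and 8 h every library had Inhba above and both Inhbb and Inha below the control, under TMM, median-of-ratios and library size scaling alike.

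Levels of different genes can be set side by side only per length, here CPM per kb of merged exons (6.39 kb for Inhba, 4.25 kb for Inhbb and 1.48 kb for Inha). Merged exons hold every annotated exon of a gene, whether or not it was used in these libraries. Shares and orders of genes on this scale, here and below, therefore depend on the annotation. On that scale Inhba made up 14.4% of the summed level of the 3 subunit genes in the control, 48.7% at 1 h, 98.2% and 95.7% in the 4 h libraries and 79.7% at 8 h. Inha was the most abundant of them in the control, with 62.1% of the sum, and made up 1.16% and 3.00% of it at 4 h and 14.9% at 8 h. The sum itself was 7.35 CPM per kb in the control, then 11.6 at 1 h, 166 and 65.7 in the 4 h pair and 15.6 at 8 h. RNA shares say nothing of the dimers that were made.

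The antisense neighbour of Inhba, B230303A05Rik, a long noncoding RNA gene on the minus strand, had 318 counts in the control and 233, 101, 114 and 90 counts in the 1 h, 4 h and 8 h libraries. It lay below the control in every kainic acid library while Inhba lay above it. Its log2 fold change against the control was -0.27 (SE 0.32) at 1 h, -1.39 (SE 0.27) for the 4 h pair and -1.62 (SE 0.33) at 8 h. It was not called in edgeR's quasi-likelihood test, with an adjusted p of 0.259 at 4 h and 0.882 at 8 h. Of the alternatives, no filter on low counts alone called it, at 4 h and at 8 h. Whether reads were assigned by strand is not stated, though the library kit keeps the strand.

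Among the type I receptor genes, Acvr1 (ENSMUSG00000026836.15) encodes ALK2, best known as a receptor for bone morphogenetic proteins that activin A can also occupy. It had 401 counts in the control, 480 at 1 h, 707 and 1005 in the 4 h pair and 1013 at 8 h, or 20.1 CPM (18.2 to 22.2), 27.3 (24.9 to 29.9), 42.0 (39.0 to 45.2), 53.1 (49.9 to 56.5) and 57.8 (54.3 to 61.5). Each kainic acid library lay above the control without overlap of the intervals, and 4 h replicate 2 and 8 h overlapped each other. The ratio to the control was 1.36 (1.18 to 1.55) at 1 h, 2.08 (1.84 to 2.36) and 2.64 (2.35 to 2.97) in the 4 h pair and 2.87 (2.55 to 3.23) at 8 h. The log2 fold change was 0.44 (SE 0.27), 1.24 (SE 0.24) and 1.51 (SE 0.27), with adjusted p of 1, 0.261 and 0.868 in the edgeR test. Of the alternatives that can change the p, only no filter on low counts called Acvr1, at 4 h and at 8 h.

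Acvr1c (ENSMUSG00000026834.13) encodes ALK7, a type I receptor for activin B and Nodal. Its counts were 790 in the control, 731 at 1 h, 977 and 1721 in the 4 h pair and 3247 at 8 h. In CPM these were 39.7 (37.0 to 42.6), 41.6 (38.6 to 44.7), 58.0 (54.4 to 61.8), 91.0 (86.8 to 95.4) and 185 (179 to 192). Control and 1 h overlapped, both 4 h libraries lay above them, and the 8 h library lay above both 4 h libraries, so that Acvr1c was highest at the time when Inhba was already below its 4 h level. The ratio to the control was 1.05 (0.946 to 1.16) at 1 h, 1.46 (1.33 to 1.61) and 2.29 (2.11 to 2.5) in the 4 h pair and 4.67 (4.32 to 5.05) at 8 h. Unlike Inhba, Acvr1c was higher in replicate 2 than in replicate 1 at 4 h, by 1.57-fold (1.45 to 1.70), and Acvr1 by 1.27-fold (1.15 to 1.40).

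The log2 fold change of Acvr1c was 0.07 (SE 0.34) at 1 h, where it is -0.01 when libraries are scaled by size alone, 0.91 (SE 0.30) in the 4 h pair and 2.22 (SE 0.35) at 8 h. The adjusted p was 1, 0.381 and 0.756 in edgeR's quasi-likelihood test. DESeq2 called Acvr1c at 8 h with an adjusted p of 0.000275, and over the 7 alternatives the adjusted p at 8 h ranged from 2.29e-14 to 1. For 8 h against 4 h the log2 fold change was 1.31 (SE 0.28, adjusted p = 0.463, edgeR). This comparison was called by 3 of the alternatives that can change the p: library size alone, no filter on low counts and DESeq2. For 4 h against the control, 1 of them (no filter) called Acvr1c. By log2 fold change at 8 h, Acvr1c held place 101 and Acvr1 place 338 of the 19768 genes.

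Acvr1 and Acvr1c are neighbours in GRCm38, both on the minus strand of chromosome 2. By coordinate, Acvr1c reaches up to 58357895, its outermost start, and Acvr1 lies from 58388644, where its transcription ends, upward. Between them are 30.7 kb and no annotated gene. The genes share strand and the direction of their values at 4 h and 8 h. Their time courses differed in that Acvr1 was already above the control at 1 h and Acvr1c was not.

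Acvr1b (ENSMUSG00000000532.11) encodes ALK4, the type I receptor used by activin A. It had 118 CPM (114 to 123) in the control, then 106 (101 to 111) at 1 h, 88.8 (84.3 to 93.4) and 98.5 (94.0 to 103) in the 4 h pair and 102 (97.1 to 107) at 8 h. All kainic acid libraries lay below the control, by ratios between 0.750 and 0.895, and 1 h, 4 h replicate 2 and 8 h overlapped one another. The log2 fold change was -0.16 (SE 0.20), -0.34 (SE 0.17) and -0.22 (SE 0.20) at 1 h, 4 h and 8 h, the smallest sizes of a receptor gene here at 4 h and 8 h.

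Per kb of exon, Acvr1b made up 76.0% of the summed level of the 3 type I receptor genes in the control, 70.3% at 1 h, 57.4% and 51.7% in the 4 h pair and 41.9% at 8 h. Acvr1c made up 12.1% in the control and 36.3% at 8 h, and Acvr1 11.8% in the control and 21.8% at 8 h. The sum was 35.2 CPM per kb in the control, 34.1 at 1 h, 35.0 and 43.1 in the 4 h pair and 54.9 at 8 h. Thus the mix of type I receptor RNA at 8 h held a larger share of Acvr1 and Acvr1c than in the control, and the sum was also higher.

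Acvr2a (ENSMUSG00000052155.5) encodes the type II receptor ActRIIA, which binds activin directly. Its levels were 66.6 CPM (63.1 to 70.3) in the control, then 58.4 (54.9 to 62.1) at 1 h, 39.6 (36.6 to 42.7) and 36.6 (33.9 to 39.4) in the 4 h pair and 50.3 (47.0 to 53.7) at 8 h. The 4 h libraries overlapped each other and lay below all other libraries, and the 8 h level stood between them and the control. The ratio to the control was 0.594 (0.540 to 0.652) and 0.549 (0.50 to 0.603) in the 4 h pair and 0.754 (0.692 to 0.822) at 8 h, and the log2 fold change was -0.81 (SE 0.18, adjusted p = 0.288, edgeR) at 4 h and -0.41 (SE 0.21, adjusted p = 1) at 8 h. Of the alternatives that can change the p, only no filter on low counts called Acvr2a, at 4 h. Of its exon length, 7.84% is overlapped by exons of the other strand.

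Acvr2b (ENSMUSG00000061393.14), the gene of the related receptor ActRIIB, had 108 counts in the control, 81 at 1 h, 50 and 77 in the 4 h pair and 52 at 8 h. Its ratio to the control was 0.849 (0.629 to 1.14), 0.547 (0.383 to 0.772), 0.750 (0.553 to 1.01) and 0.547 (0.385 to 0.768) in the same order. Only the intervals of 4 h replicate 1 and of 8 h leave out 1, and the log2 fold changes were -0.23, -0.61 and -0.85 (SE 0.47, 0.40 and 0.48). Acvr2a carried between 86.1% and 92.1% of the summed level per kb of the type II receptor genes, a sum that was 13.1 CPM per kb in the control, 11.4 at 1 h, 7.71 and 7.47 in the 4 h pair and 9.59 at 8 h.

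**Figure D2:**
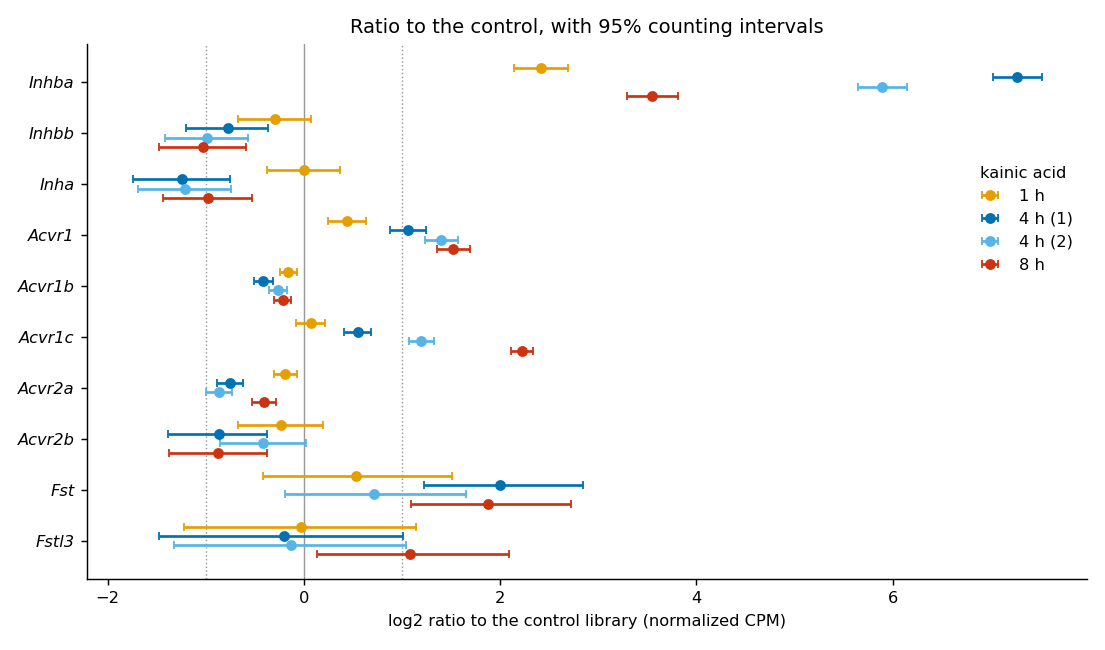
Log2 ratio of normalized CPM to the control library for each gene, with 1 point for each kainic acid library and exact binomial 95% intervals (counting error only); the solid line marks a ratio of 1 and the dotted lines a ratio of 2 and of 0.5. Inhba and Acvr1 lie right of the solid line in all 4 libraries, and Acvr1b and Acvr2a lie left of it in all 4.

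The follistatin genes were the least abundant of the 10 in the control. Fst (ENSMUSG00000021765.9), whose product wraps around activin and blocks its receptor sites, had 18 counts in the control, 23 at 1 h, 61 and 28 in the 4 h pair and 58 at 8 h. In CPM these were 0.904 (0.536 to 1.43), 1.31 (0.830 to 1.96), 3.62 (2.77 to 4.65), 1.48 (0.984 to 2.14) and 3.31 (2.51 to 4.28). The control, 1 h and 4 h replicate 2 overlapped, and 4 h replicate 1 and 8 h lay above them and overlapped each other.

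The ratio of Fst to the control was 4.01 (2.34 to 7.20) in 4 h replicate 1, 1.64 (0.874 to 3.14) in replicate 2 and 3.66 (2.12 to 6.60) at 8 h. Of the members, Fst and Inhba were the ones at least 2-fold apart between the 4 h libraries, Fst by 2.45-fold (1.54 to 3.98), and in both genes replicate 1 was higher. The log2 fold change of Fst was 1.39 (SE 0.73, adjusted p = 0.497, edgeR) at 4 h and 1.75 (SE 0.80, adjusted p = 1) at 8 h. Its 4 h value is carried mostly by replicate 1, since the log2 ratio is 0.71 in replicate 2 alone.

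Fstl3 (ENSMUSG00000020325.10) encodes a secreted relative of follistatin that also binds activin. It had 15, 13, 11, 13 and 28 counts in the control, 1 h, 4 h replicate 1, 4 h replicate 2 and 8 h libraries. Only the ratio at 8 h, 2.12 (1.09 to 4.27), left out 1, and at this depth no difference was detectable at 1 h or 4 h. At 8 h its log2 fold change was 0.98 (SE 0.66, adjusted p = 1, edgeR). Of the exon length of Fstl3, 47.3% is overlapped by exons of the other strand, so its few counts are uncertain if strand was not used in counting.

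Set against each other per kb, the β subunit genes (Inhba and Inhbb summed) exceeded the follistatin genes (Fst and Fstl3 summed) 5.51-fold in the control, 12.0-fold at 1 h, 156-fold and 106-fold in the 4 h libraries and 9.66-fold at 8 h. The β sum was 2.79 CPM per kb in the control and 13.3 at 8 h, and the follistatin sum 0.505 and 1.37. At 8 h both sums therefore stood above the control. The ratios carry no interval. The follistatin sums rest on few counts, and those of Fstl3 are uncertain by strand. Whether the ratios of 1 h and 8 h, or those of the 4 h libraries, differ was not tested.

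**Figure D3:**
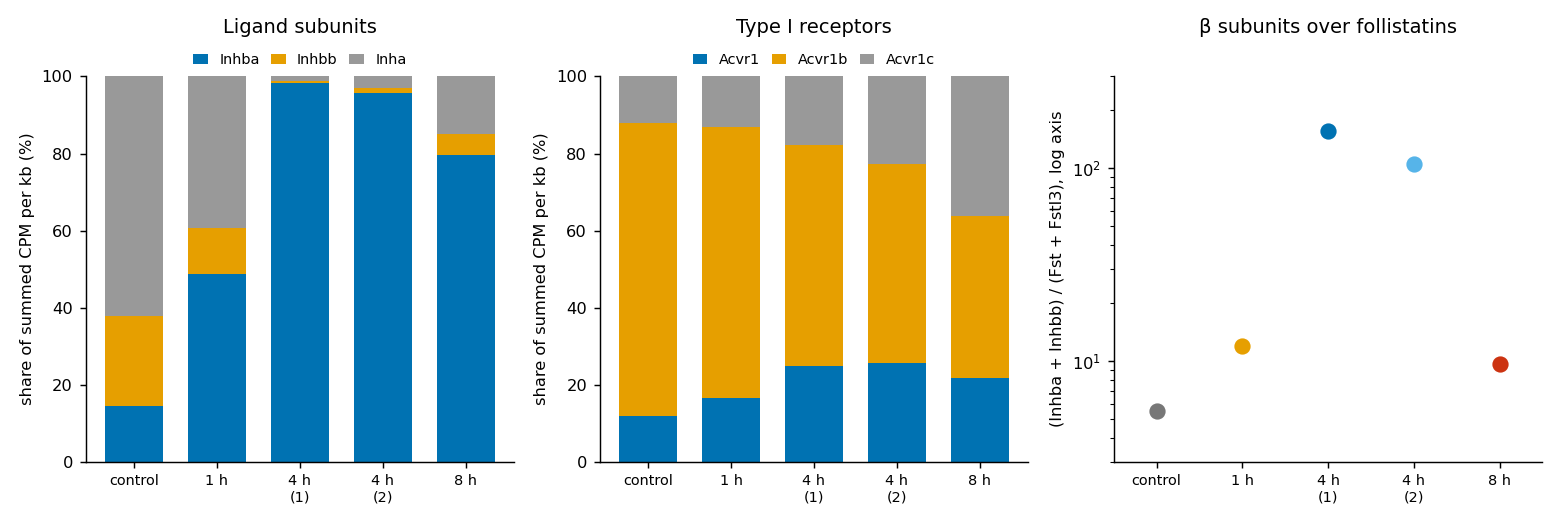
Shares of summed CPM per kb of exon among the ligand subunit genes and among the type I receptor genes (stacked bars, %), and the ratio of the summed β subunit genes to the summed follistatin genes (points, log axis), for each of the 5 libraries, without intervals. Inhba holds 98.2% and 95.7% of the ligand sum at 4 h, and the ratio at 4 h is 156 and 106 against 5.51 in the control.

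In the order of levels per kb, the control read Acvr1b (26.8 CPM per kb), Acvr2a (11.7), Inha (4.56), Acvr1c (4.27), Acvr1 (4.17), Inhbb (1.72), Acvr2b (1.38), Inhba (1.06), Fstl3 (0.308) and Fst (0.197). Within that order Inha, Acvr1c and Acvr1 did not differ beyond their counting intervals, nor did Inhbb from Acvr2b, Acvr2b from Inhba, or Fstl3 from Fst. Inhba thus stood below every receptor gene in the control, though within counting error of Acvr2b, and at 4 h it stood above all of them, at 163 and 62.9 CPM per kb against 20.1 and 22.3 for Acvr1b, the next gene in both libraries. At 8 h the order began with Acvr1b (23.0), Acvr1c (19.9), Inhba (12.4) and Acvr1 (12.0), of which Inhba and Acvr1 overlapped.

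Counted over the members, 1 of 10 was at least 2-fold above the control at 1 h (Inhba), against 5.32% of all genes tested, and 0 were at least 2-fold below, against 3.71%. At 4 h, in both libraries, 2 were above (Inhba and Acvr1; 4.86% of all genes) and 1 below (Inha; 1.5%). At 8 h, 5 were above (Inhba, Acvr1, Acvr1c, Fst and Fstl3; 6.72%) and 1 below (Inhbb; 3.3%). With 4 h replicate 2 alone Acvr1c joins those above, with replicate 1 alone Fst joins them, and scaled by library size alone Acvr1 drops out at 4 h. A single library meets the rule more easily for every gene, and the share of all genes for it was not computed. The median log2 fold change over the 10 members was -0.01 at 1 h, -0.24 in the 4 h pair and 0.38 at 8 h, beside 0.01 or less in size for all genes at each time, and members lay on both sides of the control.

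Called by edgeR's quasi-likelihood test at an adjusted p under 0.05 were 0 members at each time point, where the share of all genes called was 0% at 1 h, 0.00506% at 4 h (ETV3L alone, named after its value was seen) and 0% at 8 h. At an unadjusted p under 0.05 the same test held 1 member at 1 h (Inhba; 2.42% of all genes), 5 at 4 h (Inhba, Acvr1 and Acvr1c above, Inha and Acvr2a below; 11.6%) and 3 at 8 h (Inhba, Acvr1 and Acvr1c; 4.51%). DESeq2 gave an adjusted p for 9 members, Fstl3 being set aside for its low counts, and called 0 at 1 h (0.323% of all genes), 1 at 4 h (Inhba; 1.62%) and 1 at 8 h (Acvr1c; 0.206%). Limma-voom called 0 members and 0% of all genes at each time point. When the biological coefficient of variation was set to 0.4, edgeR called 0 members at 1 h (0.202% of all genes), 1 at 4 h (Inhba; 0.41%) and 0 at 8 h (0.0607%). A missed threshold in this design, with 1 library in most groups, does not show that levels were the same.

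Around the 10 members, 7 lists hold 63 further gene symbols of the pathway, 2 of which name the same gene. Of the symbols, 62 were in the tables, which use 1 of those 2, and 55 passed the filter. The lists are other ligands, other receptors and coreceptors, SMADs, SMAD regulators, proconvertases, other antagonists, and genes known as SMAD2/3 targets in other cells. At least 2-fold above the control were 5 of the 55 at 1 h, 7 in the 4 h pair and 9 at 8 h (5.32%, 4.86% and 6.72% of all genes tested), and below it 1, 3 and 2 (3.71%, 1.5% and 3.3% of all). Their median log2 fold change was 0.02, 0.28 and 0.14. In edgeR's quasi-likelihood test 0 of the 55 passed an adjusted p under 0.05 at any time point, and at an unadjusted p under 0.05 there were 6 at 1 h, 15 in the 4 h pair and 10 at 8 h (2.42%, 11.6% and 4.51% of all). DESeq2 gave an adjusted p for 51, 47 and 51 of them and called 0 at 1 h (0.323% of all genes), 6 at 4 h (among them Skil, Pmepa1 and Furin, higher, and Chrd, lower; 1.62%) and 2 at 8 h (Skil and Pmepa1, both higher; 0.206%). Limma-voom called 0 at each, and edgeR with that coefficient set to 0.4 called 1 at 1 h (Junb; 0.202% of all genes), 1 in the 4 h pair (0.41%) and 0 at 8 h (0.0607%).

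Among the proconvertases, which cleave the activin precursor, Furin had 29.6 CPM in the control, 30.7 at 1 h, 98.2 and 70.2 in the 4 h pair and 48.8 at 8 h. Furin was thus above the control in the libraries in which Inhba was highest. Pcsk5 had 21.2 CPM in the control and 54.2 CPM at 8 h, a ratio of 2.56 (2.28 to 2.88). Of the 4 proconvertase genes, 1 was at least 2-fold above the control at 4 h and 1 at 8 h, against 4.86% and 6.72% of all genes tested.

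The receptor-activated SMADs of the activin branch stayed within 2-fold: Smad2 ranged from 37.6 to 51.3 CPM, Smad3 from 75.6 to 129 CPM and the shared partner Smad4 from 48.8 to 54.4 CPM over the 5 libraries. Smad7, an inhibitor of the type I receptor kinase, had 13.0 CPM in the control, 58.6 at 1 h, 84.6 and 34.0 in the 4 h pair and 18.0 at 8 h, so its highest levels were at 1 h and 4 h. Of the 8 SMAD genes, 1 was at least 2-fold above the control at 1 h and 4 h (Smad7) and 1 at 8 h (Smad9, 2.06-fold, 1.72 to 2.47). Among all genes tested, 5.32% were above it at 1 h, 4.86% at 4 h and 6.72% at 8 h.

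Of the 8 SMAD regulators that passed the filter, 0 were 2-fold above the control at 1 h, 3 at 4 h (Skil, Pmepa1 and Tgif1) and 4 at 8 h (these and Tgif2), and 0 were 2-fold below. The shares of all genes tested were 5.32%, 4.86% and 6.72% above and 3.71%, 1.5% and 3.3% below. Pmepa1, whose product keeps SMAD2 and SMAD3 from being activated, had 15.8 CPM in the control, 18.8 at 1 h, 49.1 and 39.1 in the 4 h pair and 77.6 at 8 h. Skil, a corepressor of SMAD complexes, had 144, 224, 301, 288 and 395 CPM in the same order. Both were highest at 8 h, as Acvr1c was. Tgif2, another corepressor, had between 16 and 27 counts in the control, 1 h and 4 h libraries and 125 counts at 8 h, a ratio of 5.26 (3.45 to 8.29).

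Of the 8 measured SMAD2/3 target genes, which share Smad7, Skil and Pmepa1 with the lists above, 3 were at least 2-fold above the control at 1 h (among them Smad7 and Junb), 4 at 4 h (among them Smad7, Skil and Pmepa1) and 3 at 8 h (among them Skil and Pmepa1), where the shares of all genes were 5.32%, 4.86% and 6.72%. The list's median log2 fold change was 0.47, 1.26 and 0.38, beside 0.01 or less in size for all genes. Junb, at 26.3 CPM in the control and 558 CPM at 1 h, is itself known as an immediate early gene.

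The other extracellular antagonists lay on both sides of the control. Chrd, which encodes the bone morphogenetic protein antagonist chordin, had 71.4 CPM in the control, 58.1 at 1 h, 19.9 and 30.3 in the 4 h pair and 56.5 at 8 h, a ratio of 0.279 (0.247 to 0.314) and 0.424 (0.385 to 0.468) at 4 h. Lefty1 and Lefty2, antagonists of Nodal, were also at least 2-fold below the control in both 4 h libraries, with 130 counts in the control and 15 and 47 at 4 h for Lefty1, and 41 against 10 and 12 for Lefty2. At 8 h Lefty2 had 5 counts, its lowest, at a ratio of 0.138 (0.0427 to 0.350). Grem1, on the other side, was 2.07-fold (1.62 to 2.67) above the control at 1 h. Wfikkn2, whose product binds the activin relatives myostatin and GDF11, had 124, 44, 17, 97 and 193 counts, lowest in 4 h replicate 1, where the choroid plexus markers were lowest too, and the part of that difference was not tested. Wfikkn1 had at most 13 counts in a library, and its interval at 8 h includes 1.

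Of the other ligands, 8 of 14 passed the filter, and Tgfb3 was at least 2-fold above the control, at 8 h (2.09-fold, 1.78 to 2.47). Of the 10 other receptors and coreceptors, Bambi, a decoy receptor without a kinase, was 2.19-fold (1.74 to 2.76) above the control at 1 h, and Igsf1 was at a ratio of 0.397 (0.299 to 0.521) at 8 h. The remaining receptors of that list, among them Tgfbr1 at 37.2 to 48.6 CPM, did not reach 2-fold in either direction by the rule used here.

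**Figure D4:**
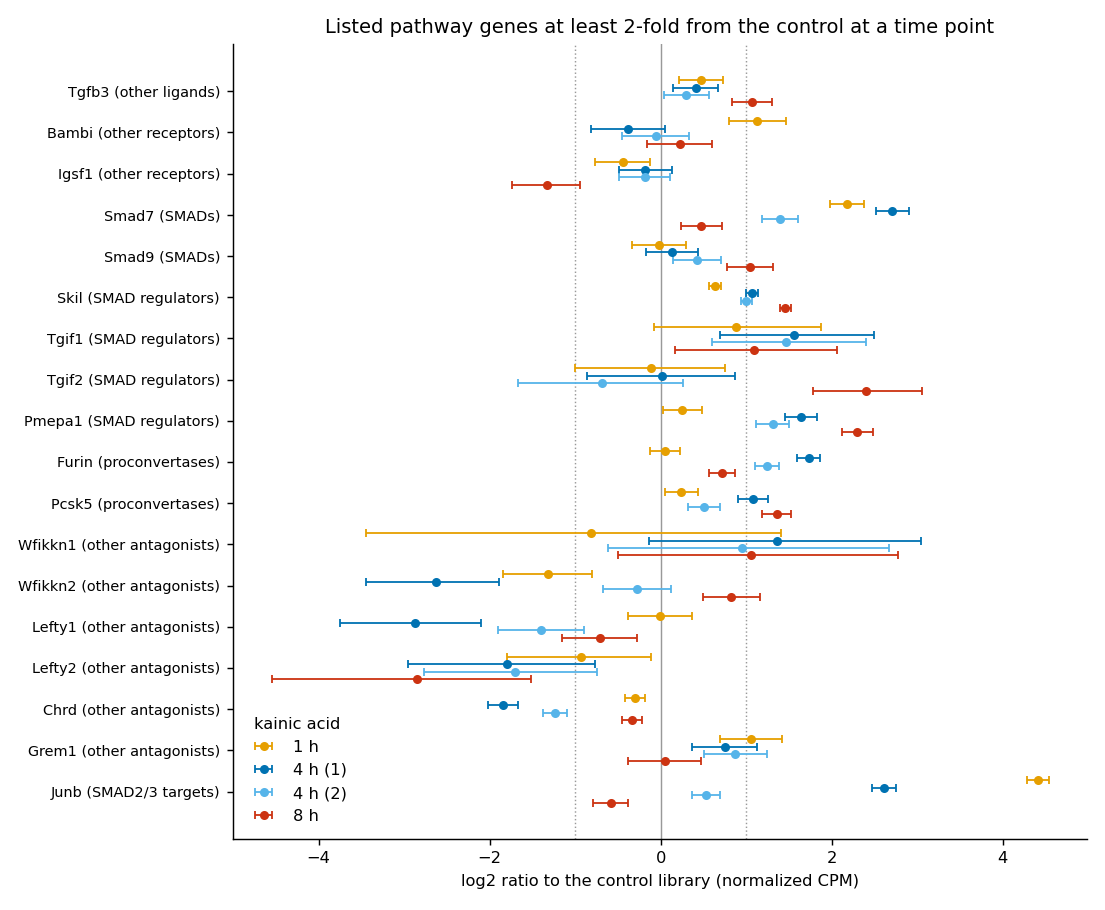
Log2 ratio of normalized CPM to the control for 18 of the 20 listed pathway genes that were at least 2-fold from the control at a time point, 1 point for each kainic acid library with exact binomial 95% intervals (counting error only); the list of each gene stands in brackets. Lefty1 and Chrd lie left of the line at 0.5 in both 4 h libraries.

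By the root mean square difference of log2 ratios to the control over the 4 kainic acid libraries (with a prior count of 2), the 5 genes most like Inhba included Fndc9 (0.33), Ccl3 (1.20), Nptx2 (1.40) and Fgf3 (1.66). Fndc9 had 4 counts in the control, 30 at 1 h, 885 and 381 in the 4 h pair and 94 at 8 h, and its log2 ratios of 2.55, 7.40, 6.02 and 4.14 stood beside 2.39, 7.24, 5.87 and 3.53 for Inhba. With so few control counts this closeness depends on the prior count. Plain ratios of CPM put Fndc9 further above Inhba in all 4 libraries. Of the others, Ccl3 encodes a chemokine and had 0 counts in the control and 208 and 22 counts at 4 h, and Fgf3 had 0 counts in the control, so their distances depend on it too. Nptx2, a gene of a synaptic pentraxin, had 17.3 CPM in the control, 198 at 1 h, 721 and 402 in the 4 h pair and 89.9 at 8 h; in 4 h replicate 2 its count in the deposited table, 7597, equals that of Inhba. These 4 were highest in 4 h replicate 1, as Inhba was, and likeness over 4 libraries is a description only.

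**Figure D5:**
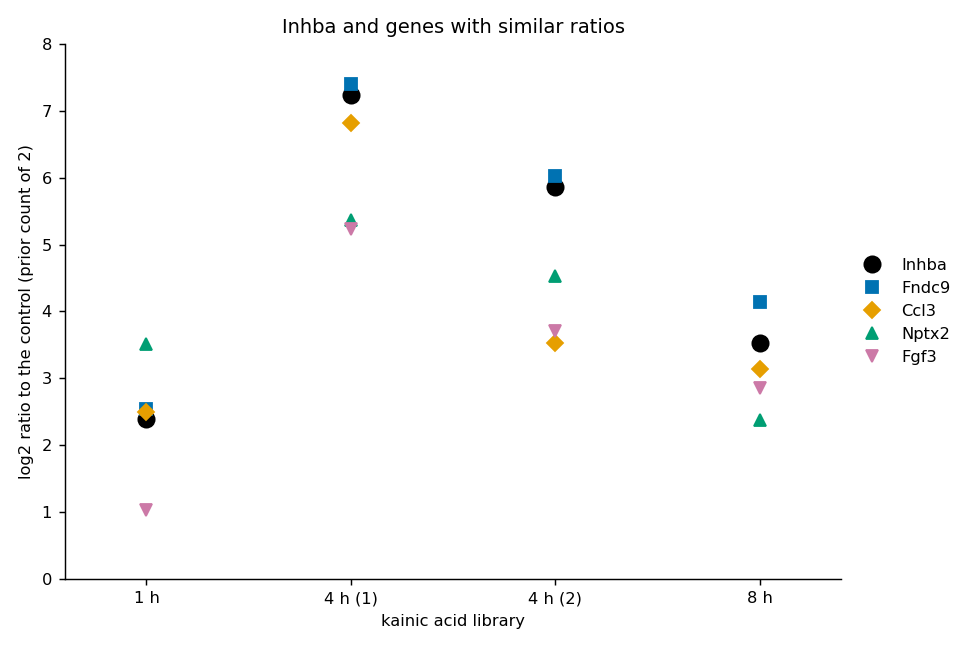
Log2 ratio to the control (prior count of 2) of Inhba and of 4 of the 5 genes with the smallest root mean square difference from it, in each kainic acid library. Fndc9 and Inhba lie closest, at 7.40 and 7.24 in 4 h replicate 1, and all 5 genes drawn are highest in 4 h replicate 1.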

How the data were processed

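Per the labels, the authors made stranded total RNA libraries, aligned the reads with STAR 2.5.1b to GRCm38.p4 and deposited counts per gene in the layout of HTSeq; the annotation release and strand setting are not stated. Lines that name no gene (on no gene, ambiguous or aligned more than once) were left out. Reads on no gene were 24.7% of the deposited reads in the control, 29.0% at 1 h, 33.1% and 25.3% in the 4 h pair and 30.9% at 8 h. They were thus highest in 4 h replicate 1, and their part in the results was not tested. Everything else was computed for this report. In R 4.3.3, edgeR 4.0.16 was run with filterByExpr, TMM (factors 1.04, 0.992, 0.924, 0.991 and 1.06) and a quasi-likelihood fit of the 4 conditions over all 5 libraries (common biological coefficient of variation 0.238, prior degrees of freedom 4.42), with Benjamini-Hochberg adjustment over 19768 genes and a prior count of 2 in log2 fold changes. Each SE was derived from that test. It is the size of the log2 fold change fitted with no prior count, divided by the square root of the test's F statistic. The tests were checked on simulated data, drawn with trended dispersions after a first simulation with dispersions of single genes gave too many false calls; many of the changed genes were missed, and the check does not show how the tests do where genes differ in their own spread. Each of these was also tried in place of the main choice: library size alone, median-of-ratios factors, no filter, DESeq2 1.42.0, limma-voom (limma 3.58.1), an assumed coefficient of variation of 0.4, a prior count of 0.125 and each 4 h library left out. A gene was 2-fold from the control when every library of the time point was; a count of 0 was set to 3. Named genes are the members, the 5 genes most like Inhba, and pathway genes 2-fold from the control, except 2 genes that are counted but not reported here by name; Smad2, Smad3, Smad4, Tgfbr1 and single markers were named after their values were seen. Positions and exon lengths are from GENCODE M21, with the same identifier versions for all 10 members; promoters are from RefSeq. Python 3.11.15 and matplotlib 3.10.9 drew the figures. Members and lists were chosen with earlier results of these data known. The promoters shown, those of members at an unadjusted p under 0.05 at 4 h, and the use for pathway genes of a rule on opposite directions that was written for members, were chosen after the values were seen.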

Additional observations from a re-analysis of the deposited data

Results flagged for a closer look

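Among the members and those pathway genes that were at least 2-fold from the control at a time point, 2 pathway genes lay above the control at one time point and below it at another, each with a 95% counting interval that left out a ratio of 1. Junb, a gene of the AP-1 family, had ratios to the control of 21.2 at 1 h, 6.11 and 1.44 in the 4 h libraries and 0.667 at 8 h; its log2 fold change for 8 h against 4 h was -2.49 (SE 0.88, adjusted p = 0.544 in edgeR's quasi-likelihood test), and the difference between 8 h and 1 h was not tested. Wfikkn2 had ratios of 0.402 at 1 h and 1.77 at 8 h, and the difference between these time points was not tested. The summed choroid plexus markers were at 1648 CPM at 1 h and 3021 CPM at 8 h, and their part in the values of Wfikkn2 was not tested. Of the 10 members, 0 met this rule. Of the pathway genes that were not 2-fold from the control, 6 lay on both sides of it in the same way, among them Smad2 with 1.22 and 1.16 in the 4 h libraries and 0.896 at 8 h (log2 fold change for 8 h against 4 h -0.41, SE 0.19, adjusted p = 0.611 in edgeR's quasi-likelihood test).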

How the results depend on the processing

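The counts of calls depended on the settings. In time order, the genes called were 0, 1 and 0 by edgeR's quasi-likelihood test (478, 2291 and 892 at an unadjusted p under 0.05), 57, 237 and 22 with library size alone, 285, 1300 and 279 with no filter on low counts, 49, 233 and 32 with DESeq2, and 40, 81 and 12 with an assumed coefficient of variation of 0.4. At 4 h both median-of-ratios factors and limma-voom called 0. Members called, 0 at each time point in that test, were 1, 4 and 3 with no filter, 0, 1 and 2 with library size alone, 0, 1 and 1 with DESeq2, and 0, 1 and 0 with the assumed coefficient of variation. The cause of these differences between settings was not tested. Library size alone was run on the same 19768 genes. With no filter every gene with a count was tested, and the share of all genes called there was not computed. The member counts with no filter are therefore not read as a result about the members. The log2 fold changes of the members were compared under 5 settings only (median-of-ratios factors, library size alone, a smaller prior count, which leaves the p unchanged, DESeq2 and limma-voom), so the calls with no filter and with the assumed coefficient of variation, counted above, are not among these 150 values. Of them 144 kept their direction and side of the threshold (Fstl3, with no adjusted p in DESeq2, taken as not called), 5 passed it (Inhba at 4 h with library size alone and DESeq2 and at 8 h with library size alone, Acvr1c at 8 h with both) and 1 changed sign (Acvr1c at 1 h, -0.00586 with library size alone; the cause was not tested). Library size alone moved the median of all genes at 4 h to -0.11. Leaving out 4 h replicate 1 added Acvr1c to the members at least 2-fold from the control at 4 h, and leaving out replicate 2 added Fst. Either step leaves no residual degrees of freedom and so no test. A single library meets the 2-fold rule more easily for every gene, and the share of all genes that meets it was not computed. No paired analysis was possible because 4 h is the only condition with replicates. Depth limits Fst and Fstl3, with 11 to 61 counts, to wide intervals.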
